A study of Mus musculus with 28 samples.

Results

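Expression of 8 genes of sterol absorption and efflux was followed in mouse small-intestinal organoids given a bone morphogenetic protein (BMP) or Tgfb. The genes were taken by symbol: Npc1l1, Abcg5, Abcg8, Abca1, Soat2, Nr1h3, Osbp2 and Olr1. All 8 were found once in each table, among 29413 genes in the table of the BMP ligands and 55416 in the table of Tgfb. RNA-seq had been made from 26 organoid samples, all wild type on C57BL/6. Crypts were grown for 48 h in ENR medium free of BMP and Tgfb, and the recombinant ligand was then given at 500 ng/ml for 24 h. In the BMP table there were 4 untreated controls and 4 samples with BMP2, and BMP3, BMP4, BMP5 and BMP7 had 3 samples apiece. For Tgfb there were 3 treated samples and 3 untreated controls of their own. The labels do not say whether replicates came from separate mice or cultures, so the p-values measure the spread between these samples only, which may be technical.

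Cholesterol and plant sterols enter the enterocyte from the gut lumen through NPC1L1, a channel-like protein of the brush border that is the target of ezetimibe. ABCG5 and ABCG8 form an obligate heterodimer that pumps sterols back into the lumen, and loss of either causes sitosterolaemia. Within the cell SOAT2 esterifies cholesterol for packing into chylomicrons, while ABCA1 passes cholesterol to apolipoprotein A-I at the basolateral side. LXR-alpha, the product of Nr1h3, is a nuclear receptor for oxysterols whose known targets include Abcg5, Abcg8 and Abca1. OSBP2 (ORP4) belongs to the oxysterol-binding proteins. OLR1 (LOX-1) is a lectin-like receptor for oxidised low-density lipoprotein, best known from endothelium and macrophages and not a part of dietary sterol absorption.

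The BMP table held counts divided by a size factor for each sample, called normalized counts here, which made it possible to recover 21358620 to 24784834 reads per sample. The Tgfb table held TPM, a unit corrected for gene length and library size, for which the depth is unknown. Levels of different genes are compared in TPM only, since normalized counts are not corrected for gene length. Changes were tested with limma on log2(value + 1) and are given as log2 changes with their standard error (SE). A gene passed at a Benjamini-Hochberg adjusted p under 0.05 over all genes tested in that comparison. Epithelial markers such as Epcam and Vil1 were all 6 present in every group, whereas mesenchymal markers summed to at most 122 normalized counts in any sample. In bulk RNA, fewer cells of a type and less RNA per cell cannot be told apart.

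The stretch of DNA between Abcg5 and Abcg8 is shown first because the genes start back to back and were the pair that moved most alike. The promoter table of RefSeq (build GRCm38.p6) had an entry for 7 of the 8 genes. In it, Abcg5 starts on the minus strand and Abcg8, at the nearer of its 2 listed starts, on the plus strand. These starts were separated by 109 bases at chr17:84683012-84683120. The other Abcg8 start, with its first base at chr17:84676302, had no GATAA in the 250 bases before it. Capitals mark the 2 matches to GATAA, the core of the GATA factor motif, which read TTATC on the plus strand.
Abcg5-Abcg8: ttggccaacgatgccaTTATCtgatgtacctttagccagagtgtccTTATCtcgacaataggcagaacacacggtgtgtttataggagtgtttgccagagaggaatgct
Of 32851 windows of 250 bases upstream of mouse start sites, 22.6% held GATAA on either strand. The 250 bases before the starts of Npc1l1 (chr11:6230246-6230495) and Olr1 (chr6:129507166-129507415), both on the minus strand, are printed 5′ to 3′ on that strand because these genes moved in opposite directions with BMP2. Capitals mark AGGTCA, the core motif of nuclear receptors, which was in 14% of the windows, and in Olr1 also TGANTCA, the AP-1 motif, which was in 6.75%. In Npc1l1 the AGGTCA match lies on the other strand and reads TGACCT.
Npc1l1: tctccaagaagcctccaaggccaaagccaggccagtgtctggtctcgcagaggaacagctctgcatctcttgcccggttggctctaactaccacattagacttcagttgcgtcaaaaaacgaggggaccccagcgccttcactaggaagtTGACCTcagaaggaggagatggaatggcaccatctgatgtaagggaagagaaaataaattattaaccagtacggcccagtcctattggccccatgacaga
Olr1: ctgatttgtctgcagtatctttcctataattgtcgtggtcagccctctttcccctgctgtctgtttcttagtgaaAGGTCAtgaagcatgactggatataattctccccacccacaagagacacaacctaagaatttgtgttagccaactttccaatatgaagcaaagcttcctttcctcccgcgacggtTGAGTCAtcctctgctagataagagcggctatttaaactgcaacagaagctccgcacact
An exact direct repeat of AGGTCA with 4 bases between, the ideal form of the LXR response element, was searched on either strand. It was found in 0.0152% of the windows and in none of those of the 7 genes. The Olr1 window also holds GATAA, 43 to 39 bases before the start, left in lower case. Searched in the same way were the SMAD motifs CAGAC (in 42.2% of the windows) and GGCGCC (9.59%). CAGAC was found for Npc1l1, Olr1 and 1 of the 3 listed starts of Osbp2, and GGCGCC for Nr1h3. The core of the sterol regulatory element (0.496%) was found in none of the 7. The motifs are descriptions of these windows only. Just exact copies were searched, so the absence of the rare repeat or of the sterol regulatory core says nothing about variant sites.

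Npc1l1, the uptake gene, rose with BMP4 and fell with BMP2, BMP5, BMP7 and Tgfb. Its controls held 1490, 1530, 2020 and 2010 normalized counts, and BMP4 samples 9620, 9230 and 7870. No BMP4 sample overlapped a control, and the rise was 2.35 ± 0.20 on the log2 scale (SE, n = 3 and 4, limma adjusted p = 1.04e-08). Over all genes tested, samples did not overlap the controls in 64.8% of genes with BMP4 and 67.6% with BMP2. The shares were 35.7% with BMP5 and 42.4% with BMP7. BMP2 samples held 775, 864, 1290 and 1440 normalized counts, all below the lowest control. The samples of BMP5, with 1010, 911 and 1300, and of BMP7, with 866, 1120 and 1300, lay in the same range as those of BMP2. The log2 changes were -0.72 ± 0.18 with BMP2 (adjusted p = 0.00156), -0.72 ± 0.20 with BMP5 (adjusted p = 0.0117) and -0.69 ± 0.20 with BMP7 (adjusted p = 0.012) in limma. BMP3 samples, at 1470, 1510 and 1720, overlapped the controls. The means therefore ran from BMP4 through control and BMP3, which overlapped, to BMP7, BMP2 and BMP5, which overlapped one another. Without BMP5 replicate III the BMP5 change had an adjusted p of 0.0744, and without BMP7 replicate II the BMP7 change had an adjusted p of 0.0861.

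Abcg5 and Abcg8, the efflux pair, rose with BMP4 and fell with BMP2, BMP5, BMP7 and Tgfb. Abcg5 held 609, 587, 950 and 1060 normalized counts in the controls, 152, 191, 129 and 256 with BMP2 and 3680, 3510 and 3080 with BMP4. The highest BMP2 sample was below the lowest control, and the lowest BMP4 sample was above the highest. Abcg8 held 811, 630, 868 and 1110 in the controls, 156, 143, 109 and 265 with BMP2 and 4000, 3670 and 3260 with BMP4, again without overlap. With BMP2 the log2 change was -2.13 ± 0.29 for Abcg5 (adjusted p = 1.85e-06) and -2.39 ± 0.26 for Abcg8 (adjusted p = 9.15e-08). With BMP4 it was 2.14 ± 0.31 for Abcg5 (adjusted p = 7.36e-06) and 2.11 ± 0.28 for Abcg8 (adjusted p = 2.19e-06). Means were 4.4 and 5.08 times lower than control with BMP2 and 4.27 and 4.26 times higher with BMP4, for Abcg5 and Abcg8.

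BMP5 and BMP7 lowered the pair less far. Abcg5 held 405, 266 and 649 normalized counts with BMP5, the last inside the control range, and 265, 347 and 574 with BMP7. Abcg8 held 483, 250 and 554 with BMP5 and 358, 371 and 525 with BMP7, all below the lowest control. The Abcg8 change was -1.04 ± 0.28 with BMP5 (limma adjusted p = 0.00894) and -1.02 ± 0.28 with BMP7 (adjusted p = 0.00831), and that of Abcg5 was -0.91 ± 0.31 (adjusted p = 0.037) and -1.04 ± 0.31 (adjusted p = 0.0148). These calls rested on single samples in part: without BMP5 replicate III the adjusted p was 0.235 for Abcg5 and 0.0874 for Abcg8, and without BMP7 replicate II it was 0.101 for Abcg5. The Abcg5 call with BMP5 was also lost without BMP5 replicate II (0.072) and without control replicate IV (0.0914) or VI (0.109). BMP3 samples held 581, 630 and 917 of Abcg5 and 745, 620 and 822 of Abcg8, inside or next to the control range. In both genes the order of means was BMP4, control, BMP3, BMP5, BMP7 and BMP2, and only BMP4 and BMP2 were separated from their neighbours in both.

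**Figure D1:**
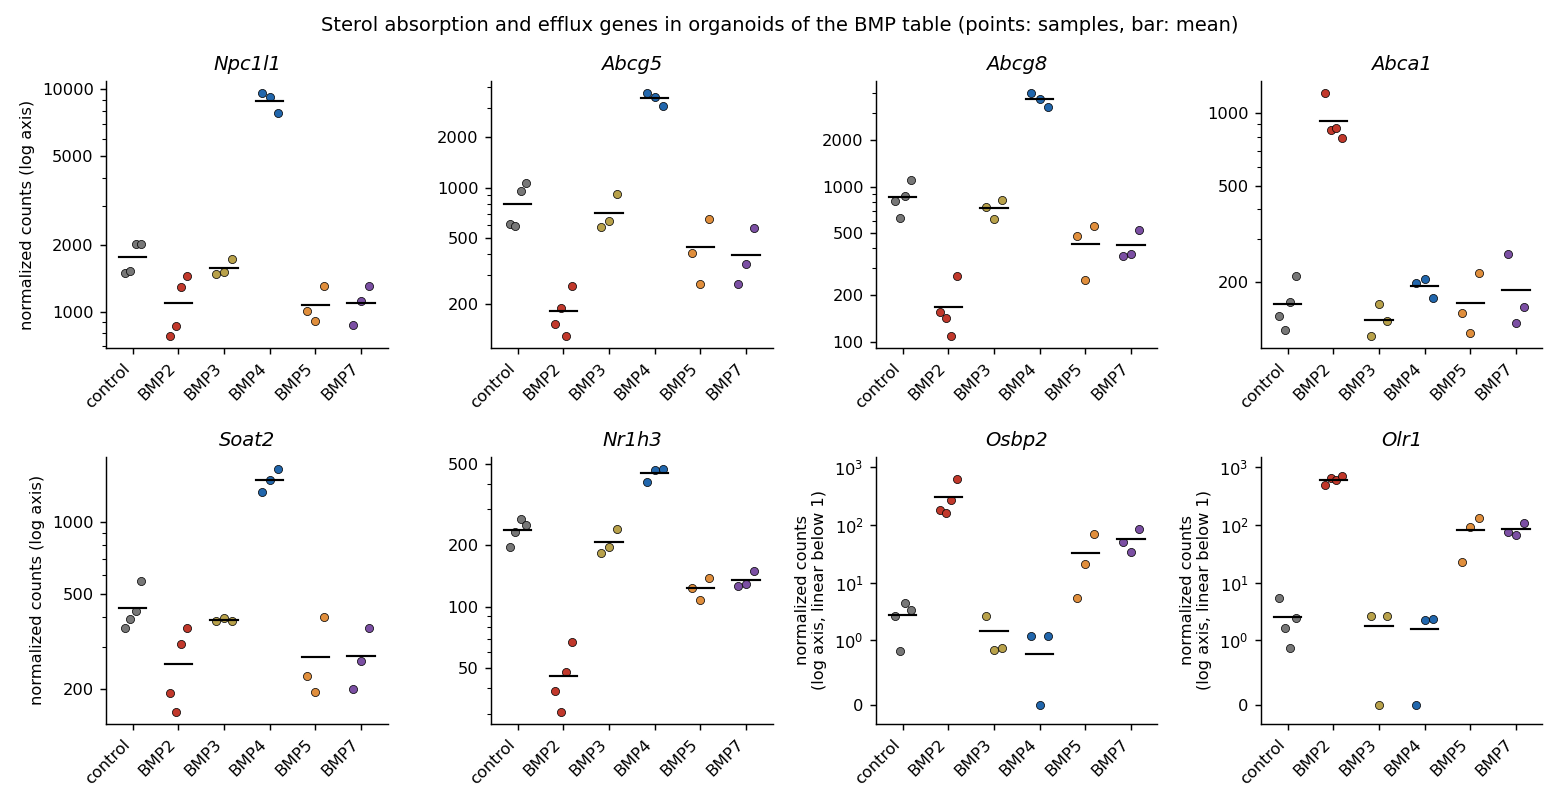
Normalized counts of the 8 genes in each of the 20 samples of the BMP table, by ligand; points are samples, bars are group means, and the vertical axes are logarithmic (linear below 1 for Osbp2 and Olr1). BMP4 samples stand above all others in Npc1l1, Abcg5, Abcg8, Soat2 and Nr1h3, and BMP2 samples stand above all others in Abca1, Osbp2 and Olr1.

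Soat2 followed Npc1l1. It held 361, 391, 425 and 568 normalized counts in the controls, 1330, 1500 and 1670 with BMP4 and 192, 160, 307 and 361 with BMP2. BMP4 raised it by 1.80 ± 0.27 on the log2 scale (limma adjusted p = 1.24e-05), without overlap. BMP2 lowered it by a log2 change of -0.83 ± 0.25 (adjusted p = 0.00624), its highest sample level with the lowest control, and quantile normalization put that p at 0.0646. The samples of BMP5 (226, 194 and 398) and BMP7 (200, 261 and 359) had log2 changes of -0.73 ± 0.27 and -0.69 ± 0.27 that did not pass (adjusted p = 0.0569 and 0.0595). With the replicate number as a block both passed, at an adjusted p of 0.0032 with BMP5 and 0.00372 with BMP7. BMP3 samples held 385, 394 and 386.

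Nr1h3, the LXR-alpha gene, went the way of Abcg5 and Abcg8. Controls held 197, 233, 269 and 251 normalized counts and BMP2 samples 38.6, 30.7, 48.2 and 67.1, a log2 change of -2.39 ± 0.18 (limma adjusted p = 9.75e-10), or a mean 5.15 times lower. BMP5 samples (123, 108 and 139) and BMP7 samples (126, 129 and 150) lay between BMP2 and control and overlapped neither. Their changes were -0.94 ± 0.20 (adjusted p = 0.00177) and -0.81 ± 0.20 (adjusted p = 0.00459). BMP4 samples held 405, 468 and 472, a rise of 0.92 ± 0.20 (adjusted p = 0.000516), beside 2.35 for Npc1l1 and 1.80 for Soat2, a difference between genes that was not tested. BMP3 samples held 183, 196 and 241, within reach of the controls.

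Abca1, the basolateral exporter, rose with BMP2 while Abcg5, Abcg8 and Nr1h3 fell. Controls held 144, 126, 165 and 211 normalized counts and BMP2 samples 1210, 855, 869 and 787. The lowest BMP2 sample was above every other sample of the table, and the log2 change was 2.52 ± 0.22 (limma adjusted p = 3.79e-09), a mean 5.76 times that of control. All other ligands left it in a band that overlapped the controls, with 197, 206 and 172 for BMP4, 149, 123 and 217 for BMP5, 261, 135 and 157 for BMP7 and 119, 161 and 138 for BMP3. The BMP4 change of 0.27 had a 95% interval of -0.22 to 0.76 and did not pass (adjusted p = 0.326). It was -0.13 when all samples were scaled to the same total. The BMP7 change of 0.16 had a 95% interval of -0.33 to 0.65 (adjusted p = 0.634).

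Osbp2 and Olr1 were close to undetected in the controls and rose with BMP2, BMP5 and BMP7. Olr1 held 5.33, 1.66, 0.887 and 2.48 normalized counts in the controls, from 12 reads in all, and 485, 646, 588 and 697 with BMP2. BMP5 samples held 22.4, 89.8 and 130 and BMP7 samples 75.3, 65.6 and 108, above all controls and below all BMP2 samples. The log2 change was 7.53 ± 0.55 with BMP2 (limma adjusted p = 3.93e-10), 4.33 ± 0.59 with BMP5 (adjusted p = 2.70e-05) and 4.66 ± 0.59 with BMP7 (adjusted p = 8.62e-06). Without BMP5 replicate II the BMP5 change was 5.07. With a pseudocount of 5 in place of 1 the changes were 6.35, 3.25 and 3.54. Since the controls held few reads, the 234-fold ratio of BMP2 to control had a 95% counting interval of 133 to 453, which covers counting error only. BMP4 samples, at 0, 2.28 and 2.39, and BMP3 samples, at 2.67, 0 and 2.63, stayed at or under 3 reads.

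Osbp2 held 2.66, 0.83, 4.44 and 3.3 normalized counts in the controls, from 13 reads in all, and 181, 160, 266 and 607 with BMP2. Its BMP2 samples were more uneven than those of Olr1, with replicate VI highest. The log2 change was 6.21 ± 0.61 (limma adjusted p = 2.49e-08) and the ratio of reads 108-fold, with a 95% counting interval of 62.7 to 203. BMP7 samples held 49.9, 33.7 and 85.6, a log2 change of 3.92 ± 0.65 (adjusted p = 0.000154). BMP5 samples ranged widely, at 5.38, 21.3 and 69.3, with a log2 change of 2.61 ± 0.65 (adjusted p = 0.00627). Without BMP5 replicate VI this change was 1.75 with an adjusted p of 0.0644, and without replicate II it was 3.48. With a pseudocount of 5 the changes with BMP2, BMP5 and BMP7 were 5.12, 1.83 and 2.91. Both Osbp2 and Olr1 passed the filter of a mean of 10 normalized counts only through the samples with BMP2, BMP5 and BMP7. Samples of BMP4 (1.19, 0 and 1.2) and BMP3 (2.67, 0.845 and 0.875) held at most 3 reads each.

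Counted by ligand, 8 of the 8 genes passed with BMP2, 3 higher and 5 lower, beside 75.1% of the 14746 genes tested (36.8% higher and 38.4% lower). With BMP4, 5 genes passed, all higher, beside 65.1% of all genes (33.7% higher and 31.4% lower). With BMP5 and with BMP7, 6 passed, 2 higher and 4 lower, beside 26.3% and 32.4% of all genes. Those shares were 16.5% higher and 9.87% lower with BMP5, and 19.2% higher and 13.2% lower with BMP7. The 2 higher with BMP5 and with BMP7 were Osbp2 and Olr1, also among the 3 higher with BMP2. They passed the filter only through the samples of these ligands, so their part of the counts supports nothing. Most genes moved with BMP2 and with BMP4, and the members' counts there are near that background. The 8 genes were chosen with earlier results of these data known, so no excess is read from any count. For BMP5 the count of 6 fell to 3 without BMP5 replicate III. With BMP3, 0 of the 8 genes and 0% of all genes passed in limma. At an unadjusted p under 0.05, 0 of the 8 genes and 110 of all genes differed with BMP3, and edgeR passed 0 and DESeq2 1 of all genes. The 5 comparisons share the same 4 controls.

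**Figure D2:**
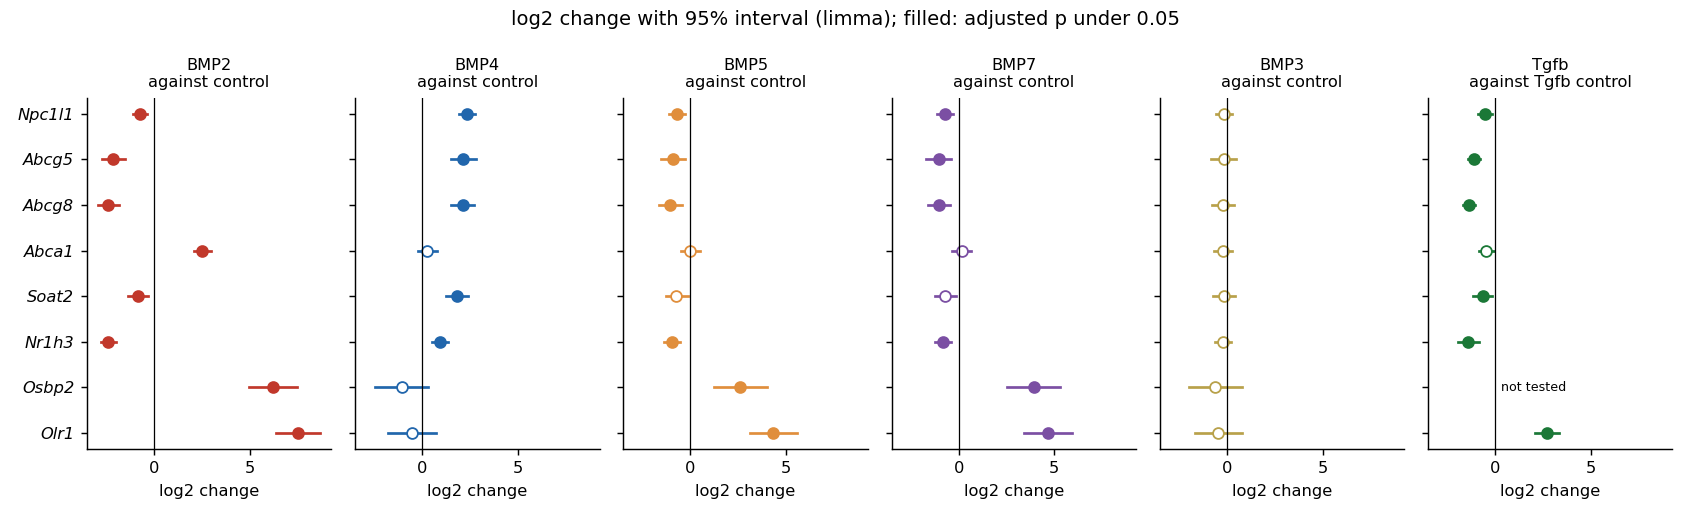
Log2 change of each of the 8 genes with each of the 5 BMP ligands against control and with Tgfb against its own control (horizontal axis), with 95% intervals from limma; filled points passed at an adjusted p under 0.05. Osbp2 has no Tgfb value because it was below the filter there, and the BMP2, BMP5, BMP7 and Tgfb points lie on the same side of 0 in Npc1l1, Abcg5, Abcg8, Soat2, Nr1h3 and Olr1.

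Scaling mattered for how the whole transcriptome divided. Of the genes that passed, 48.9% were higher with BMP2 and 51.7% with BMP4. When samples were scaled to the same total, these shares were 31.8% and 31.1%, and the median log2 change of all genes moved by -0.45 and -0.39. With BMP5 the share higher was 62.5%, or 49.8% after quantile normalization, and with BMP7 it was 59.4%, or 48% after quantile normalization. In all 46 tested member changes that passed, against control or between ligands, the direction was kept under every alternative run.

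Compared directly at the same dose and time, BMP2 and BMP4 differed in all 8 genes, 3 higher and 5 lower with BMP2, beside 66.8% of all genes (33.4% in each direction). Npc1l1 was 8.15, Abcg5 18.8, Abcg8 21.7, Soat2 5.88 and Nr1h3 9.71 times lower with BMP2 than with BMP4 by group means. The log2 differences were -3.07, -4.27, -4.50, -2.62 and -3.31, and no BMP2 sample overlapped a BMP4 sample. That lack of overlap was seen in 60.6% of all genes tested. Abca1 was 4.85 times higher with BMP2, a log2 difference of 2.26 ± 0.23 (limma adjusted p = 8.56e-08). Against a floor of 3 reads per BMP4 library, Olr1 was at least 171-fold higher with BMP2 by the mean, and at least 138-fold in the lowest BMP2 sample. Osbp2 was at least 86.1-fold higher by the mean, at least 45.4-fold in the lowest BMP2 sample and, with replicate VI left out of the mean, at least 57.4-fold. Both genes had been noticed as strongly different between BMP2 and BMP4 in earlier work on these data, so their size here is a description. They also passed the filter only through samples where they were high, so their part of the count supports nothing.

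BMP4 and BMP7 differed in 7 of the 8 genes, 5 higher and 2 lower with BMP4, beside 59.8% of all genes (28.4% higher and 31.4% lower). Npc1l1, Abcg5 and Abcg8 were 8.13, 8.66 and 8.72 times higher with BMP4 by group means, Soat2 was 5.49 times higher and Nr1h3 3.32 times higher. Olr1 was at least 23.5-fold and Osbp2 at least 16-fold higher with BMP7, against the same floor. They are the 2 counted as lower with BMP4, and they passed the filter only through samples where they were high. Of the 4190 and 4628 genes higher and lower, 47.5% were higher, or 28.7% with the same total in every sample. The Abca1 difference of 0.11 had a 95% interval of -0.41 to 0.63 and did not pass (limma adjusted p = 0.722). BMP5 and BMP7, which belong to the same BMP subgroup, differed in 0 of the 8 genes, beside 0.0136% of all genes. At an unadjusted p under 0.05 the counts were 0 of the 8 genes and 347 of all genes, and edgeR passed 4 and DESeq2 24 of all genes. For Osbp2, the widest of these differences, the 95% interval of BMP5 against BMP7 was -2.78 to 0.16 on the log2 scale. That interval still holds levels several-fold lower with BMP5.

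Uptake and efflux genes did not keep the same proportion in every group. The log2 of Npc1l1 over the mean of Abcg5 and Abcg8 was 1.08, 1.33, 1.15 and 0.89 in the controls (1.11 ± 0.18, SD, n = 4). In BMP2 samples it was 2.32, 2.38, 3.43 and 2.46 (2.65 ± 0.53, SD, n = 4), above every other sample. BMP4 samples, at 1.33, 1.36 and 1.31, lay closer together than those of any other group in that table (SD 0.03). BMP5 gave 1.19, 1.82 and 1.12, BMP7 gave 1.49, 1.64 and 1.24, and BMP3 gave 1.16, 1.27 and 0.99, all overlapping the controls in part. Abcg5 and Abcg8 stayed close to each other, with a log2 ratio from -0.43 to 0.42 over the 20 samples. Because normalized counts are not corrected for length, only the differences between groups can be read from these ratios.

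**Figure D3:**
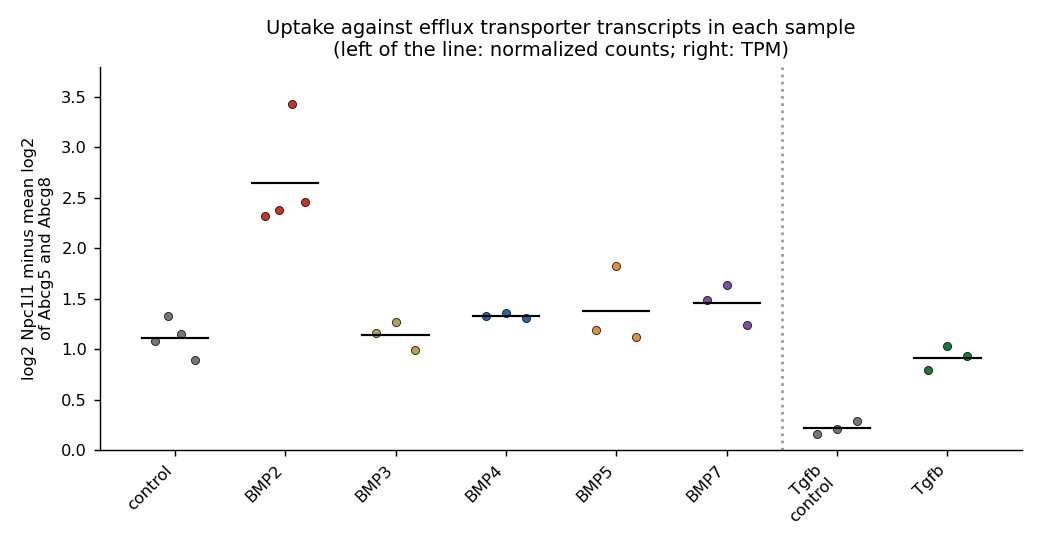
Log2 ratio of Npc1l1 to the mean of Abcg5 and Abcg8 in every sample of both tables; points are samples and bars are group means. BMP2 samples lie between 2.32 and 3.43, above all other samples of the BMP table, and the Tgfb samples, at 0.79 to 1.03, lie above their controls at 0.16 to 0.29.

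Tgfb lowered Npc1l1, Abcg5, Abcg8, Soat2 and Nr1h3 and raised Olr1, the directions seen with BMP2. Of 7 members tested, 6 passed, 1 higher and 5 lower, beside 56.7% of the 12959 genes tested in that table (27.4% higher and 29.3% lower). Abcg8 held 23.9, 23.9 and 28.4 TPM in the controls and 8.47, 8.44 and 11.2 with Tgfb, a log2 change of -1.35 ± 0.13 (limma adjusted p = 0.000249). Abcg5 held 29.6, 31.7 and 36.9 in the controls and 14.7, 12.7 and 17 with Tgfb, a log2 change of -1.10 ± 0.13 (adjusted p = 0.000599). Neither gene's groups overlapped, as was so for 64.6% of all genes tested in that table. Nr1h3 fell from 16.2, 17.7 and 12 TPM to 4.37, 4.25 and 7.31, a log2 change of -1.39 ± 0.22 (adjusted p = 0.00235).

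Npc1l1 held 29.8, 32 and 39.9 TPM in the controls and 20.1, 22.2 and 27.3 with Tgfb (log2 change -0.53 ± 0.15, limma adjusted p = 0.0236). Soat2 held 12.5, 12.3 and 15.9 and then 6.92, 7.13 and 11.6 (log2 change -0.64 ± 0.20, adjusted p = 0.0357). The groups of both genes did not overlap, but the calls depended on single samples. Leaving out 1 sample gave an adjusted p of up to 0.0791 for Npc1l1, lost without control replicate II or III or Tgfb replicate I or II, and up to 0.121 for Soat2, lost without control replicate I, II or III or Tgfb replicate I or II. The Soat2 call was also lost with no filter on low values (adjusted p = 0.0775). Olr1 was listed at 0 in all 3 controls and at 4.69, 4.12 and 8.31 TPM with Tgfb, a log2 change of 2.70 ± 0.25 on the log2(TPM + 1) scale (adjusted p = 0.000225). Olr1 is the 1 member counted as higher above, and it passed the filter of a mean of 1 TPM only through the Tgfb samples, so that count supports nothing. With a pseudocount of 5 TPM its log2 change was 1.08 and with 0.1 TPM 5.79. Osbp2, at 0.233, 0.217 and 0.0251 TPM in the controls and 1.2, 0.908 and 2.35 with Tgfb, was below that filter. Without that filter its log2 change was 1.06 (adjusted p = 0.0179). Abca1, which rose with BMP2, held 2.82, 2.31 and 3.61 TPM in the controls and 1.75, 1.7 and 2.04 with Tgfb (log2 change -0.46 ± 0.16), and missed the threshold at an adjusted p of 0.0525.

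Per length, the order of levels in the Tgfb controls was Npc1l1 (33.9 ± 5.33 TPM, SD, n = 3), Abcg5 (32.8 ± 3.74), Abcg8 (25.4 ± 2.64), Nr1h3 (15.3 ± 2.95), Soat2 (13.6 ± 2.03) and Abca1 (2.91 ± 0.655). Npc1l1 and Abcg5 overlapped there, as did Nr1h3 and Soat2. With Tgfb the order was Npc1l1 (23.2 ± 3.69), Abcg5 (14.8 ± 2.18), Abcg8 (9.36 ± 1.57), Soat2 (8.54 ± 2.62), Olr1 (5.71 ± 2.27), Nr1h3 (5.31 ± 1.74), Abca1 (1.83 ± 0.181) and Osbp2 (1.48 ± 0.76). In that order Abcg8 and Soat2, Soat2 and Olr1, Olr1 and Nr1h3, and Abca1 and Osbp2 overlapped. The log2 ratio of Npc1l1 to the mean of Abcg5 and Abcg8 was 0.22 ± 0.07 in the controls and 0.92 ± 0.12 with Tgfb (SD, n = 3 each). Abcg5 was higher than Abcg8 in every sample of this table, by a log2 ratio of 0.30 to 0.73.

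**Figure D4:**
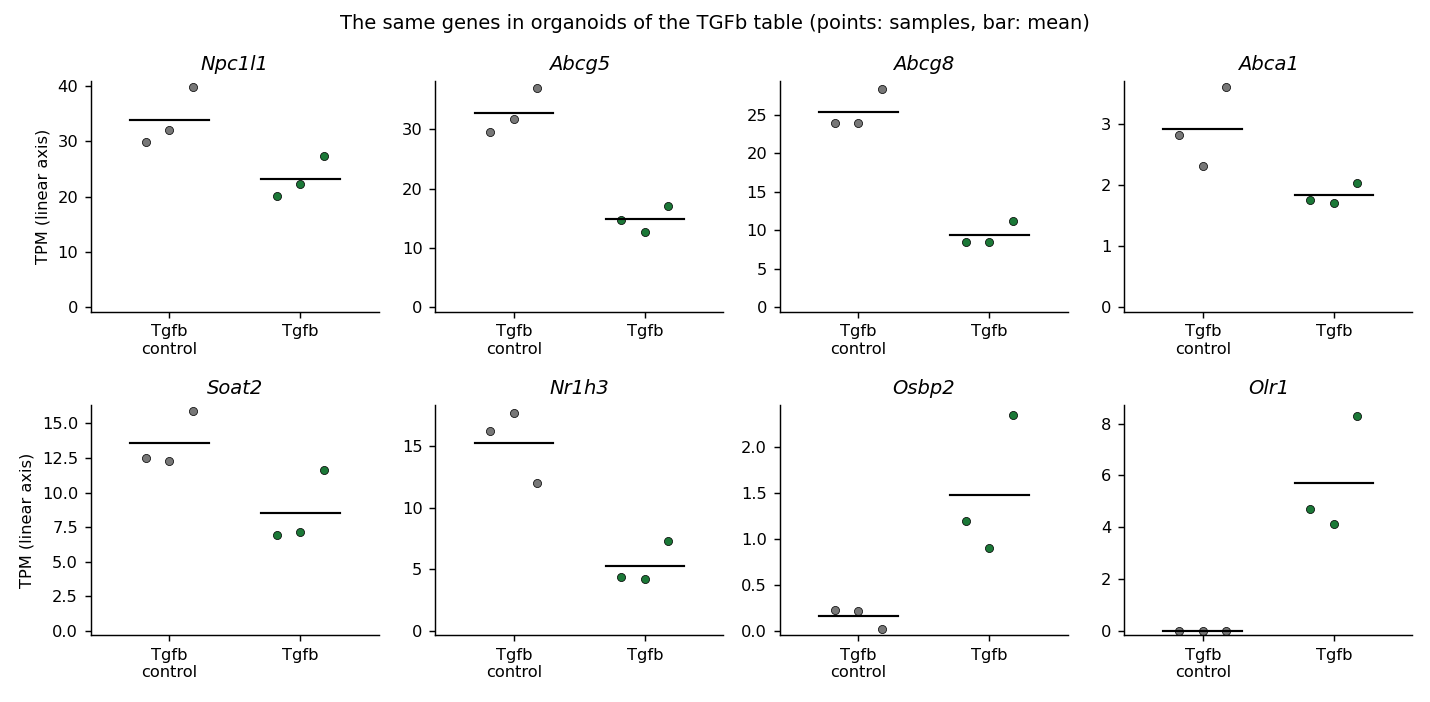
TPM of the 8 genes in the 3 control and 3 Tgfb samples; points are samples and bars are group means, each panel with its own vertical axis. Npc1l1, Abcg5, Abcg8, Abca1, Soat2 and Nr1h3 are lower in all Tgfb samples than in any control, and Osbp2 and Olr1 are higher. Of all genes tested, 64.6% likewise had no overlap between Tgfb and control samples.

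Markers of other states moved with the 8 genes, and their part in the results was not tested. Over all genes tested, 36.8% were higher and 38.4% lower with BMP2, and 33.7% and 31.4% with BMP4. With BMP5 these shares were 16.5% and 9.87%, and with BMP7 19.2% and 13.2%. Mature enterocyte markers summed to 53623 to 95606 normalized counts in the controls and 419356 to 489030 with BMP4, where 10 of 10 rose beside Npc1l1, Abcg5, Abcg8 and Soat2. With BMP2 their sum was 91693 to 180860, with 4 higher and 4 lower, while Npc1l1, Abcg5 and Abcg8 fell. The largest part of that sum was Krt20, at a mean of 63525 with BMP2 beside 2088 in the controls. Sis fell with BMP2 from a mean of 24575 to 1600 and Slc5a1 from 8900 to 542. With BMP5 and BMP7 the sums, 40886 to 78265 and 38715 to 83358, overlapped the controls. Of the 10 markers 2 rose and 3 fell with BMP5 and 3 rose and 4 fell with BMP7, beside the lower Npc1l1, Abcg5 and Abcg8. The brush-border disaccharidase gene Sis (log2 change -1.66 with BMP5 and -1.78 with BMP7) and the glucose transporter gene Slc5a1 (-1.58 and -1.61) were among those that fell. Among those that rose were Nt5e (3.30 with BMP5 and 4.12 with BMP7) and Krt20 (2.05 and 2.51). Crypt markers summed to 110718 to 138995 in the controls, 1247 to 2428 with BMP2 and 7179 to 10434 with BMP4, and 6 of 6 fell with each. In the Tgfb table mature enterocyte markers summed to 4095 to 5857 TPM in the controls and 2928 to 3677 with Tgfb, without overlap. Of the 10, 5 were higher and 5 lower, beside 27.4% and 29.3% of all genes tested there. Nt5e, among those higher, was at a mean of 0.0702 TPM in the controls and 8.7 with Tgfb. It passed the filter of a mean of 1 TPM only through the Tgfb samples, so its part of the count supports nothing. Crypt markers there summed to 2587 to 3031 TPM and to 195 to 199 with Tgfb, and 6 of 6 fell.

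Macrophage and other immune markers, which matter beside Olr1 and Abca1, summed to 217 to 273 in the controls and 823 to 1280 with BMP2. Of its 3 genes tested 2 rose with BMP2, BMP5 and BMP7, beside 36.8%, 16.5% and 19.2% of all genes. With BMP2 1 fell, beside 38.4%. Most of the sum was Cd14, at a mean of 182 in the controls, 922 with BMP2, 315 with BMP5 and 370 with BMP7. Csf1r, the receptor of a macrophage growth factor, rose from a mean of 4.32 to 35.7 with BMP2 (log2 change 2.64, limma adjusted p = 8.48e-06), 21 with BMP5 (adjusted p = 0.00181) and 17.8 with BMP7 (adjusted p = 0.00372). The integrin gene Itgam fell with BMP2 from 41.6 to 14.2. The part of these markers in the results for Olr1 and Abca1 was not tested. The pan-leukocyte gene Ptprc was at a mean of 6.71 and 14, and the macrophage gene Adgre1 at 0.222 and 0.285. In the Tgfb table the immune list summed to 4.74 to 6.18 TPM in the controls and 14.2 to 16 with Tgfb, beside the higher Olr1. Cd14, most of that sum too, rose there from a mean of 3.78 to 13.3 TPM (log2 change 1.59, limma adjusted p = 1.97e-05). Csf1r was at 0.0133 and 0.383 TPM, and Adgre1 was listed at 0 in all 6 samples. Itgam was lower with Tgfb, at a mean of 0.392 TPM beside 1.2 in the controls. The endothelial list summed to 571 to 777 in the controls and 840 to 1036 with BMP2, nearly all of it Pecam1. Its defining genes Cdh5 and Kdr were at 0 in all 4 controls, and with BMP2 Cdh5 was at 22.7 to 40.9 and Kdr at 0 to 2.56.

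Other genes of the pathway, in lists that were drawn up with earlier results of these data known, are given by counts and median. The list of the LXR pathway (receptors, partners and known targets) holds Nr1h3 itself, which is left out of the counts here. Of its 11 other tested genes, 6 rose and 2 fell with BMP2 and 6 rose and 3 fell with BMP4, with median log2 changes of 0.42 and 0.72. Scaling every sample to 1 total put the number that fell with BMP2 at 5. The medians of all genes tested were -0.03 for BMP2, 0.04 for BMP4, -0.03 for BMP5 and -0.05 for BMP7. The shares of all genes that passed, higher and lower, were 36.8% and 38.4% with BMP2 and 33.7% and 31.4% with BMP4. They were 16.5% and 9.87% with BMP5, and 19.2% and 13.2% with BMP7. Of the LXR genes, 4 rose and 1 fell with BMP5, and 4 rose with BMP7. Without BMP5 replicate VI 1 rose with BMP5, and without BMP7 replicate II 2 rose with BMP7. The cholesterol exporter gene Abcg1 rose with BMP2 from 11.6 ± 4.74 to 144 ± 59.6 normalized counts (SD, n = 4 each, log2 change 3.50, limma adjusted p = 1.02e-07), the direction of Abca1. Unlike Abca1, it also rose with BMP5 (log2 change 1.56, limma adjusted p = 0.00826) and BMP7 (1.39, adjusted p = 0.014). Arl4c, a small GTPase gene and LXR target, rose from 187 ± 26.5 to 2075 ± 466 with BMP2, to 1690 ± 464 with BMP5 and to 1760 ± 392 with BMP7, and fell to 34.2 ± 13.5 with BMP4. Smpdl3a (652 ± 85.7 to 3283 ± 514) and Lpcat3, a phospholipid-remodelling enzyme gene (4088 ± 351 to 11200), rose most with BMP4.

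Genes of NPC1L1 trafficking and apical uptake were counted in the same way, beside the same shares of all genes. Of 11 tested, 10 rose and 1 fell with BMP2, 9 rose and 1 fell with BMP4, 5 rose with BMP5 and 8 with BMP7, at medians of 1.01, 1.08, 0.35 and 0.42. With BMP2 Rab11a, the recycling endosome GTPase gene, rose from 1658 ± 78.9 to 6510 ± 442 normalized counts and Myo5b, its motor, from 4280 ± 224 to 13475 ± 1040. The gene that fell with BMP2 was Cd36, a fatty acid and lipoprotein receptor gene, from 126 ± 73.1 to 26.3 ± 8.33, and it rose to 709 ± 61.8 with BMP4. The gene that fell with BMP4 was Flot2, a membrane scaffold gene, from 374 ± 18.6 to 109 ± 12 (log2 change -1.77, limma adjusted p = 1.60e-09). Of 20 genes of intracellular sterol transport, 9 rose and 7 fell with BMP2 and 11 rose and 2 fell with BMP4, at medians of 0.05 and 0.62. The BMP2 counts are near the shares of all genes, 36.8% higher and 38.4% lower, so nothing is read from them. With BMP4 the shares of all genes were 33.7% and 31.4%. Among the relatives of Osbp2, Osbpl3 rose with BMP2 from 694 ± 75.8 to 3688 ± 283, to 2073 ± 428 with BMP5 and to 1950 ± 149 with BMP7. Osbpl6 fell from 619 ± 87.5 to 105 ± 21.5 with BMP2, and was at 1167 ± 133 with BMP4.

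Soat1, the ubiquitous relative of Soat2, did not share its rise with BMP4. It fell from 4640 ± 437 normalized counts to 1169 ± 135 under BMP2, 1038 ± 187 under BMP4, 2177 ± 965 under BMP5 and 1393 ± 75.1 under BMP7 (limma adjusted p = 5.34e-09, 1.38e-08, 0.00014 and 1.63e-06). With Tgfb it fell from 72.5 ± 3 to 9.74 ± 1.84 TPM (n = 3 each, adjusted p = 1.54e-05). Of the 9 tested genes of sterol esters and lipoprotein export, 2 rose and 5 fell with BMP2, and 6 rose and 1, Soat1, fell with BMP4, at medians of -0.97 and 2.34. Of all genes, 36.8% rose and 38.4% fell with BMP2, and 33.7% rose and 31.4% fell with BMP4. Mttp, which loads lipid onto apolipoprotein B, fell with BMP2 from 16250 ± 4279 to 4690 ± 2129 and was at 78967 ± 1935 with BMP4. Lipa, the lysosomal acid lipase gene, rose from 528 ± 194 to 2408 ± 678 with BMP2 and 5153 ± 654 with BMP4.

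Of 16 genes of sterol synthesis and SREBP2 targets, 12 were higher and 1 lower with BMP4, at a median of 0.71. Of all genes, 33.7% were higher and 31.4% lower. The counts in the list were 7 and 3 when samples were scaled to the same total. Insig1, which holds SREBP in the endoplasmic reticulum, rose from 8650 ± 1682 to 30233 ± 3870 normalized counts and Hmgcs1, an early enzyme gene of the pathway, from 13425 ± 1786 to 35633 ± 1332. With BMP2 6 rose and 6 fell (median 0.04), near the shares of all genes at 36.8% and 38.4%. The counts were 2 and 9 when samples were scaled to 1 total. Among those that fell was Dhcr7, which encodes the last reductase of cholesterol synthesis, from 2662 ± 268 to 336 ± 148. Of the 7 other scavenger receptor genes tested, 5 rose with each of BMP2, BMP5 and BMP7, at medians of 1.14, 0.84 and 0.95. Of all genes, 36.8%, 16.5% and 19.2% were higher with these ligands. With BMP4 5 rose and 1 fell, beside 33.7% and 31.4% of all genes. Stab1, among those higher with BMP2 and with BMP4, was at a mean of 2.59 in the controls, below the filter. Its means were 36.9 with BMP2 and 24.4 with BMP4, so its part of those counts supports nothing. Cxcl16, a receptor for oxidised lipoprotein and a chemokine, rose from 706 ± 148 to 12500 ± 1944 with BMP2, 3317 ± 796 with BMP5 and 3463 ± 461 with BMP7. In the Tgfb table Cxcl16 rose from 5.1 ± 1 to 114 ± 5.07 TPM.

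**Figure D5:**
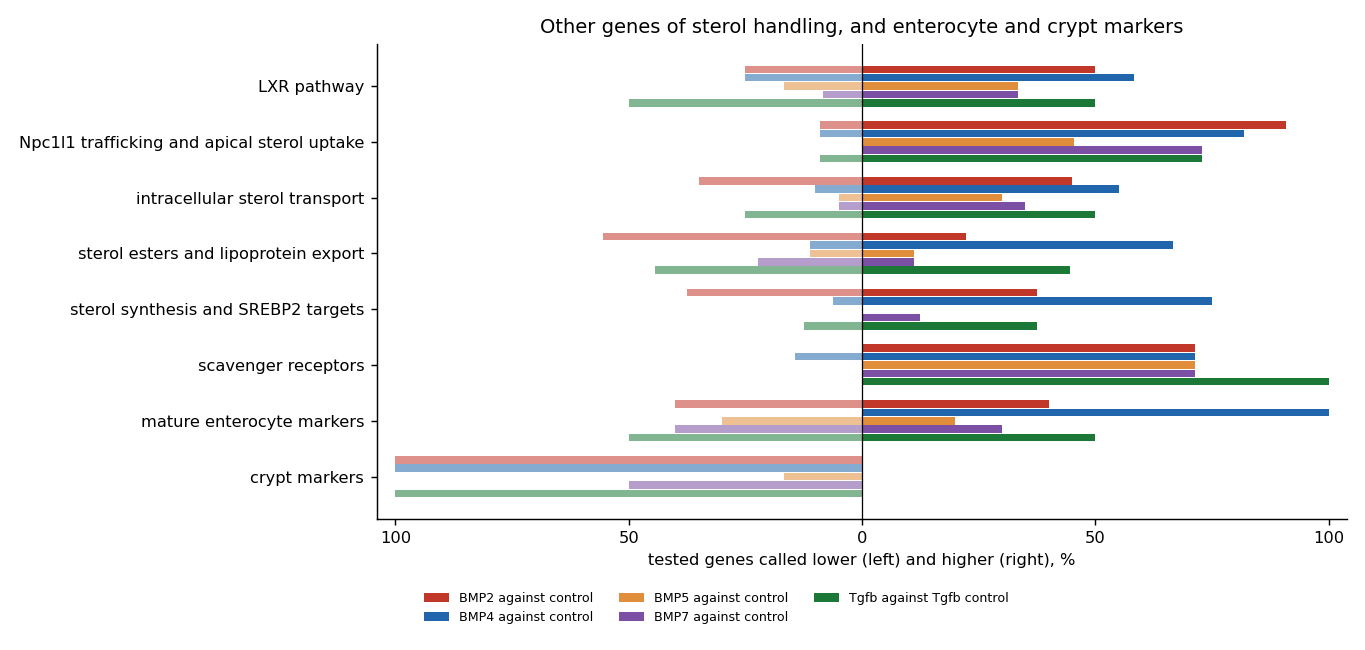
Share of the tested genes of 6 sterol lists and 2 marker lists that passed at a limma adjusted p under 0.05 with BMP2, BMP4, BMP5, BMP7 and Tgfb, in percent, higher to the right and lower (paler) to the left. The trafficking list has 10 of 11 genes higher with BMP2 and 5 with BMP5, the LXR list is drawn with Nr1h3 in it, and the synthesis list has 12 of 16 higher with BMP4 and 6 with BMP2.

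Across the 20 samples of the BMP table, the closest pairs among the 8 genes were Abcg5 with Abcg8 (Pearson's r of log2 values 0.989), Npc1l1 with Soat2 (0.974) and Osbp2 with Olr1 (0.958). Abcg8 and Nr1h3 had an r of 0.944, and Abca1 and Nr1h3 one of -0.753. These values describe 6 groups of samples that share controls and depth scaling, and no test is attached to them. A mean of at least 50 was held by 11856 genes, members included. Among those that were not members, the most like Npc1l1 were Tm6sf2 (0.991), Dgat1 (0.99) and Sult1d1 (0.987). Tm6sf2 was also among the 3 nearest to Soat2 (0.98), beside Pcyt2 (0.981) and Smlr1 (0.977). Adh1 (0.994), Gstm4 (0.993) and Ugt2b34 (0.99) were nearest to Abcg8, and Ehhadh (0.989), Cdr2 (0.989) and Dpep1 (0.988) to Abcg5. Acaa2 (0.99), Pbld2 (0.988) and Khk (0.987) were nearest to Nr1h3. B4galt7 (0.964), Natd1 (0.951) and Snx6 (0.947) were nearest to Abca1, the least close of the 8 sets. Bok (0.987), Elk3 (0.984) and Pea15a (0.982) were nearest to Olr1, and Aopep (0.978), Niban2 (0.977) and Shtn1 (0.977) to Osbp2.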

How the data were processed

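RNA-seq of 26 organoid samples was analysed, and the mesenchymal samples of the series were not used here. Per the submitters' processing notes, Trim Galore, Salmon, DESeq2 and build GRCm39 were used; their roles and versions are not given in the sources used here. The BMP table as deposited holds a signal, gene counts divided by a size factor per sample, given to 3 significant digits. This was read from the values: 180721 of 180721 values at or below 20 reads (100%) were whole multiples, within 0.02 reads, of what 1 read was worth (0.826 to 1.28). The Tgfb table as deposited holds TPM, since each column summed to 1000000, and its depth is unknown. The 2 tables were scaled separately, so tests stayed within a table; no sample column lacked a match (0 unmapped).

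Columns were assigned to samples by title. Genes with a mean of at least 10 normalized counts (14746 of 29413) or 1 TPM (12959 of 55416) were fitted on log2(value + 1) with limma 3.58.1 in R 4.3.3, with an intensity trend; the 6 groups of the BMP table shared a fit. Such changes understate those of low genes. Tests were two-sided, with Benjamini-Hochberg adjustment over all genes tested and a threshold of 0.05. The planned design named edgeR for raw counts; as the values were normalized, edgeR 4.0.16 and DESeq2 1.42.0 were run on the recovered reads as alternatives. They called 11106 and 11172 genes with BMP2, 9667 and 9747 with BMP4, 4199 and 4650 with BMP5, and 5039 and 5503 with BMP7. The limma script was tested on simulated data. A group with every library at or under 3 reads was set to that floor per library for a fold; counting intervals and floors cover counting error only, since no molecular identifiers are named for these reads.

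Deviations of same-numbered samples from their group means correlated above 0.1 in every pair for BMP3, BMP4, BMP5 and BMP7 against control, BMP4 against BMP7 and BMP5 against BMP7, so there the replicate numbers in the titles pair the samples by that check of the data. For BMP2 against control only replicate III fell short, at 0.0182 beside 0.195, 0.421 and 0.308 for II, IV and VI. The same held for BMP2 against BMP4, with -0.04 for III beside 0.272 for II and 0.298 for VI. No pair reached that limit for Tgfb (0.00405 to 0.0696). Libraries were sequenced in more than 1 run per the labels, which name no run for a sample. The members and gene lists were chosen with earlier results of these data known. The rule for names took all 8 members, from each list at most the 2 genes that rose and the 2 that fell most past the threshold in a comparison, and the 3 genes nearest to each member by Pearson's r over the 20 samples. Promoter sequences and coordinates are those of RefSeq's table on GRCm38.p6 and were not carried over to GRCm39.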

Additional observations from a re-analysis of the deposited data

Results flagged for a closer look

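Of 20 values in groups of 4 samples (the 8 genes and both ratios, in the controls and with BMP2), 1 had a sample far from the others. The log2 ratio of Npc1l1 to the mean of Abcg5 and Abcg8 in BMP2 replicate IV was 3.43, while the other BMP2 samples were at 2.32 to 2.46. Its gap took 0.875 of the group's range, above Dixon's 95% critical value for 4 samples. That sample held the lowest Abcg5 (129) and Abcg8 (109) of the table, with 1290 normalized counts of Npc1l1. Chance alone passes this limit in about 1 of 20 groups. Without that sample the BMP2 mean was 2.39, still above the highest value of any other sample of the BMP table (1.82).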

How the results depend on the processing

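For the 56 tested changes of the 8 genes given above, 914 values were recomputed under other pseudocounts (0.1 and 5), filters, scalings, fits, tools and without each sample in turn, and 864 kept their direction and their side of the threshold. Of the 46 that passed, 0 reversed and 9 lost the call in some alternative, in 22 of 752 values. These are named beside the results above, except that Abcg5 with BMP5 was also lost with no filter (adjusted p = 0.0554) and with only its 2 groups in the fit (0.0613). The 12 reversals were in changes that had not passed. For Abca1 they were BMP4 against control with the same total in every sample (-0.13), BMP4 against BMP7 with the same total (-0.22) and with edgeR (-0.05), and BMP5 against control with edgeR and DESeq2 (0.01 each). Without single samples Abca1 ranged from -0.23 to 0.18 with BMP5, from -0.12 to 0.35 with BMP7 and from -0.08 to 0.39 for BMP4 against BMP7, and Olr1 from -0.84 to 0.04 with BMP4. The number of genes passing with BMP5 ranged from 3 to 6 without single samples. Osbp2 with BMP4 passed at a pseudocount of 0.1 (-2.19, adjusted p = 0.0447), where a few reads decide the value. A pseudocount of 5 moved the Tgfb ratio of Npc1l1 to Abcg5 and Abcg8 from 0.92 to 0.74.

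The main fits used no replicate block. With the block, Soat2 passed in limma with BMP5 (adjusted p = 0.0032) and BMP7 (0.00372), and no other call of a member changed in the comparisons the numbers pair. All genes passing went from 3884 to 5738 with BMP5 and from 4773 to 6689 with BMP7, so the background shares rose too. In the Tgfb table, where the samples share only a number, the block put Abca1 at an adjusted p of 0.0493, and 7 members passed. Abca1 in that table also passed at a pseudocount of 0.1 (0.0429), after quantile normalization (0.0274) and without control replicate II (0.0302). Soat2 with BMP5 and BMP7 also passed with the same total, quantile normalization and DESeq2. Of 1723 values for 107 changes of named list genes, 1675 kept their call and 0 reversed. Of 1176 list counts, 1063 were within 1.5 times. With the same total, sterol synthesis genes higher with BMP2 went from 6 to 2, LXR genes other than Nr1h3 lower with BMP2 from 2 to 5, and scavenger receptor genes higher with BMP4 from 5 to 3. Where changes lost a call the cause was not tested. Levels of Osbp2 and Olr1 in the controls and with BMP3 and BMP4 are limited by depth, at 0 to 6 reads per library.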
